A study of Homo sapiens with 20 samples.

Results

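The 39 protein-coding HOX genes of the human genome were followed through 20 RNA-seq libraries of K562, a human erythroleukemia cell line. They were taken by symbol (HOXA, HOXB, HOXC or HOXD followed by digits), with no filter on a measured value. The choice of this gene family was made with earlier results of these data known. They are 39 of the 57736 genes with a row in the drug arm of the study and of the 53153 in its excision arm, and split into 11 HOXA, 10 HOXB, 9 HOXC and 9 HOXD genes. In the drug arm, cells received DMSO, the EZH2 inhibitor GSK343 at 5 uM or the REST inhibitor X5050 at 100 uM for 72 h, or both drugs at those doses for 8, 24 or 72 h (labelled GR). In the excision arm, K562 cells carried an empty vector (EV) or a CRISPR excision of silencer 1 (S1KO), silencer 2 (S2KO) or both (DKO), and received no drug. Each of the 10 groups holds 2 libraries, described as biological replicates, and the labels do not say whether an excised line is 1 clone. The only DMSO libraries are from 72 h, so for the 8 h and 24 h groups drug and time in culture cannot be told apart.

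HOX genes encode homeodomain transcription factors that set position along the body axis, and they lie in 4 clusters in which neighbouring genes face the same way and carry paralog numbers in order. In blood cells, genes of the HOXA and HOXB clusters are active in stem and progenitor cells and are shut off as the cells mature. Polycomb repressive complex 2, whose catalytic subunit is EZH2, keeps silent HOX genes under the mark H3K27me3, while KMT2A and its partners keep active ones on. HOX proteins bind DNA together with PBX and MEIS family cofactors.

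The drug libraries held 22925617 to 38177320 gene counts and the excision libraries 55913728 to 98507880 estimated counts. The 11 erythroid and K562 markers were all detected, with a summed level of 1709 to 6292 CPM (counts scaled to the library total) in the drug arm and 2582 to 20580 in the excision arm. MS4A1, a B cell marker, was at 0 in every library of both arms. In GENCODE 29 the annotated HOXB3 gene runs across HOXB4, HOXB5 and HOXB6 on the same strand, HOXB7 runs across HOXB8 and HOXB9, and HOXC6 runs across HOXC8 and HOXC9, so the counts of these genes depend on how reads in shared exons were handled. With 2 libraries against 2 an exact permutation test cannot give a p under 0.333, so every adjusted p below comes from edgeR's quasi-likelihood test and rests on its variance model.

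HOXB was the most abundant cluster. Fewer expressing cells and less RNA per cell cannot be told apart in these bulk libraries. In TPM, which is scaled for gene length, it held 89.6% to 93.8% of the summed HOX signal of an excision library, HOXC 6.13% to 9.56%, HOXD 0.0459% to 1.26% and HOXA 0.0162% to 0.591%. HOXB9, of the posterior end of its cluster, led the order of levels with 28.5 and 43.3 TPM in EV, 34.4 and 55.3 for S1KO, 28.9 and 42.8 for S2KO, and 32.8 and 35.1 for DKO. Its lowest library lay above the highest library of any other member, and all 4 groups overlapped.

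HOXB7 (mean 9.48 TPM over the 8 libraries), HOXB3 (9.13), HOXB2 (9.10) and HOXB4 (7.44) followed HOXB9, and their ranges overlapped one another. HOXC9 came next as the leading HOXC gene, with 4.49 and 4.19 TPM in EV, 6.18 and 5.46 for S1KO, 3.45 and 4.14 for S2KO, and 5.67 and 5.21 for DKO. In TPM its S1KO and DKO libraries were above those of EV, and its S2KO libraries below them. In CPM, from the counts that were tested, only S1KO lay apart from EV, and S2KO and DKO overlapped it. HOXC9 passed in no excision comparison. HOXB6 (3.62) and HOXB8 (2.19) completed the 8 genes whose mean exceeded 1 TPM. The step down to the next gene, HOXC6 with a mean of 0.743, had no overlap, and from there on each gene's range overlapped that of the next.

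Within the HOXB cluster the level did not follow the order of the genes. HOXB5, which lies between HOXB4 and HOXB6, had a mean of 0.251 TPM with a range of 0.0952 to 0.494, below every library of both its neighbours. The ends of the cluster were near silent, with HOXB1 at 0 to 0.0098 TPM and HOXB13 at 0.0304 to 0.0692. HOXD8 led its cluster, with 0.00605 and 0.0448 TPM in EV, 0.0334 and 0.240 for S1KO, 0.0353 and 0.874 for S2KO, and 0.0669 and 0.147 for DKO. Replicate 2 was the higher library of each pair. S1KO and S2KO overlapped EV, and both DKO libraries were above both EV libraries. HOXA6 led the HOXA cluster with 0.156 and 0.0094 TPM in EV, 0.260 and 0.187 for S1KO, 0.0632 and 0.0521 for S2KO, and 0.208 and 0.271 for DKO. Both libraries of S1KO and of DKO were above both of EV, and those of S2KO lay between the 2 EV libraries.

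**Figure D1:**
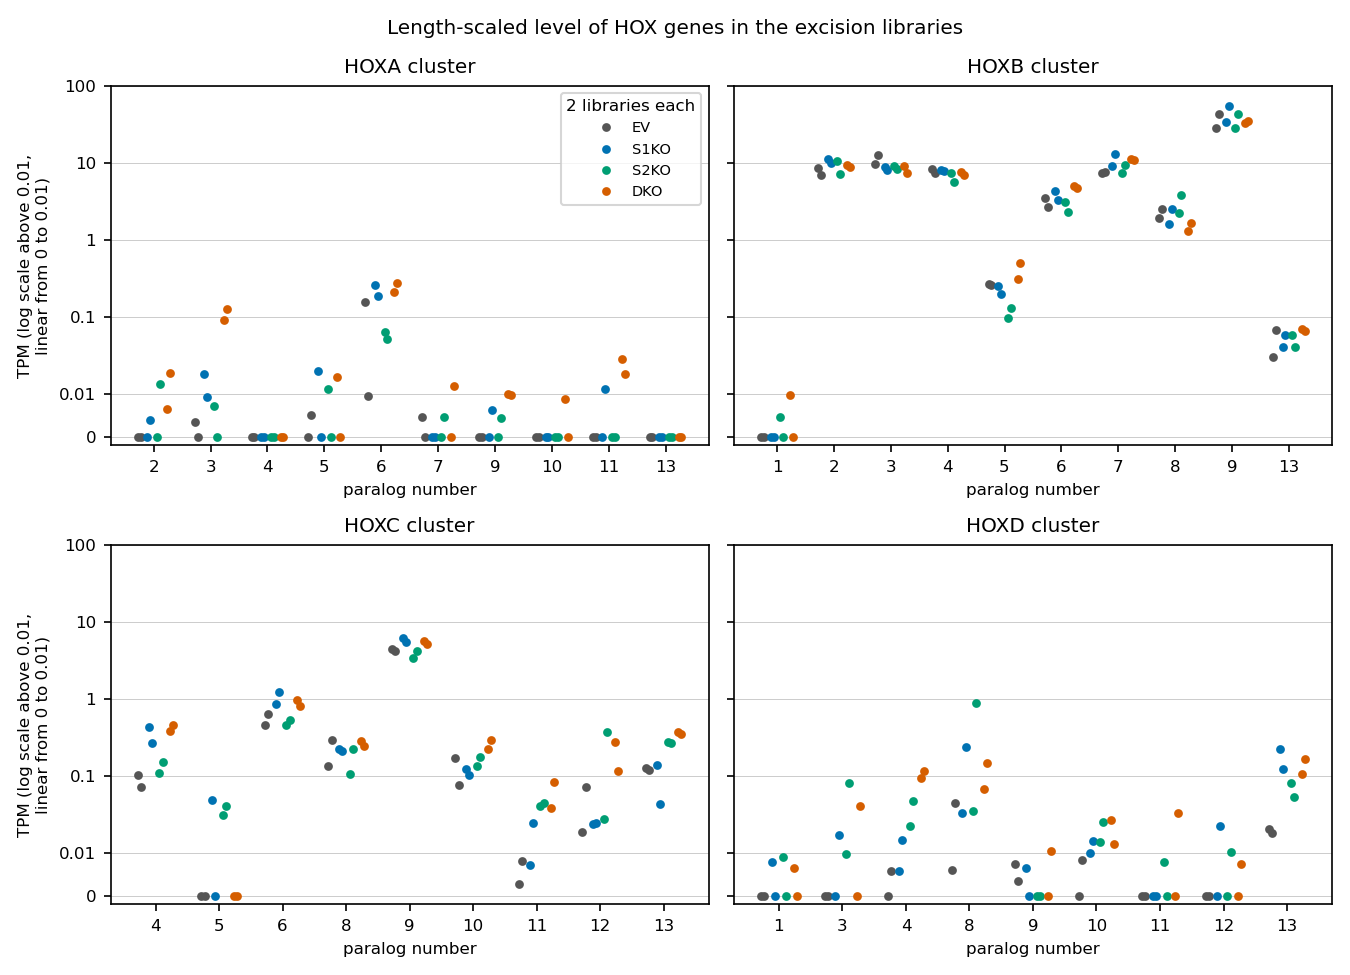
TPM of the HOX genes described here (vertical axis, log scale above 0.01 and linear below) against paralog number, 1 panel per cluster, with 1 point per excision library coloured by group. HOXB2 to HOXB4 and HOXB6 to HOXB9 and HOXC9 lie above 1 TPM in every library, while HOXA4 and HOXA13 are at 0 in all 8.

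The drug arm gave the same kind of profile on the CPM scale, which is not scaled for length and so is compared here only between libraries. HOXB counts made up 94.5% to 97.3% of all HOX counts of a library, and HOXB9 alone 41.3% to 59.7%. The filter on low counts left 17 members for testing (HOXB2 to HOXB9, HOXC6, HOXC8 to HOXC13, HOXD3 and HOXD8), of which 14 passed the test in at least 1 comparison. Another 18 had counts but too few to be tested, and HOXA2, HOXA4, HOXA10 and HOXD11 had none in any library. No untested member exceeded 12 counts in a drug library. Of the members in the excision arm, 22 were tested, 15 had too few counts and HOXA4 and HOXA13 had none.

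Under both drugs the anterior and middle HOXB genes were low at 8 h and 24 h and stood near the DMSO level at 72 h. Over the same libraries the summed erythroid markers went from 2296 to 2377 CPM with DMSO to 5096 to 5693 at 8 h, 4883 to 4988 at 24 h and 4523 to 5989 at 72 h. At 24 h 4 of the 11 erythroid markers rose and 5 fell, beside 43.1% of all tested genes called in either direction. Of 3 tested lymphoid markers 1 rose and 1 fell. The erythroid factor KLF1 fell by 3.12 ± 0.34 at 24 h (edgeR adjusted p = 8.11e-05). PTPRC, the leukocyte antigen CD45, rose by 0.77 ± 0.15 at 24 h (adjusted p = 0.000749) and fell by 1.575 ± 0.158 at 72 h (adjusted p = 1.92e-06). CD3E, a T cell marker, fell by 4.166 ± 1.115 at 24 h (adjusted p = 0.00651). The part of these markers in the HOX differences was not tested. HOXB6 had 13.3 and 10.4 CPM with DMSO, 1.70 and 2.10 at 8 h, 3.55 and 3.10 at 24 h, and 11.6 and 11.5 at 72 h. Both early groups lay far below all DMSO libraries, and the 72 h libraries lay between the 2 DMSO values. Against DMSO, HOXB6 fell by 2.67 ± 0.21 (log2 fold change ± SE) at 8 h (edgeR adjusted p = 2.94e-07) and by 1.65 ± 0.20 at 24 h (adjusted p = 7.15e-06), and from 24 h to 72 h it rose by 1.64 ± 0.20 (adjusted p = 7.59e-06). All 3 calls held with any 1 library left out.

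HOXB5 had the same course at a lower level. It read 4.72 and 3.51 CPM with DMSO, 0.836 and 0.995 at 8 h, 1.01 and 1.10 at 24 h, and 3.53 and 3.57 at 72 h. The early libraries were all below DMSO, and the 72 h libraries lay within the DMSO range. Its log2 fold change was -2.19 ± 0.30 at 8 h, -1.78 ± 0.30 at 24 h and 1.60 ± 0.30 from 24 h to 72 h, with edgeR adjusted p of 3.37e-05, 0.000182 and 0.000426.

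HOXB4, a factor known for expanding blood stem cells, had 47.9 and 48.7 CPM with DMSO, 21.1 and 23.5 at 8 h, 29.2 and 26.2 at 24 h, and 44.7 and 55.9 at 72 h. It fell by 1.16 ± 0.16 at 8 h (edgeR adjusted p = 2.76e-05) and by 0.63 ± 0.16 at 24 h (adjusted p = 0.0038, or 0.0543 without the 24 h replicate 2), and rose by 0.71 ± 0.16 from 24 h to 72 h (adjusted p = 0.0014). HOXB3 read 41.3 and 40.0 CPM with DMSO, 16.2 and 14.3 at 8 h, 22.8 and 22.8 at 24 h, and 34.8 and 56.4 at 72 h. Its early libraries did not overlap DMSO, and its 72 h libraries lay on either side of it. HOXB3 fell by 1.46 ± 0.22 at 8 h (edgeR adjusted p = 0.000161). Its fall at 24 h, by 0.66 ± 0.22 with an adjusted p of 0.025, was lost with any 1 library left out (0.0991 to 0.147), with unstranded counts (0.102) and with the GC trend removed (0.0739). Its rise from 24 h to 72 h, 0.86 ± 0.22 with an adjusted p of 0.00551, had 0.121 without the 72 h replicate 2.

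HOXB2, the most anterior of the tested HOXB genes, read 29.7 and 41.0 CPM with DMSO, 22.5 and 23.0 at 8 h, 24.9 and 26.9 at 24 h, and 36.4 and 41.2 at 72 h. It fell by 0.69 ± 0.17 at 8 h (edgeR adjusted p = 0.0046), which did not pass without DMSO replicate 2 (0.0904) or with the GC trend removed (0.119). Both early groups were below both DMSO libraries, but the 24 h difference of -0.29 did not pass.

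**Figure D2:**
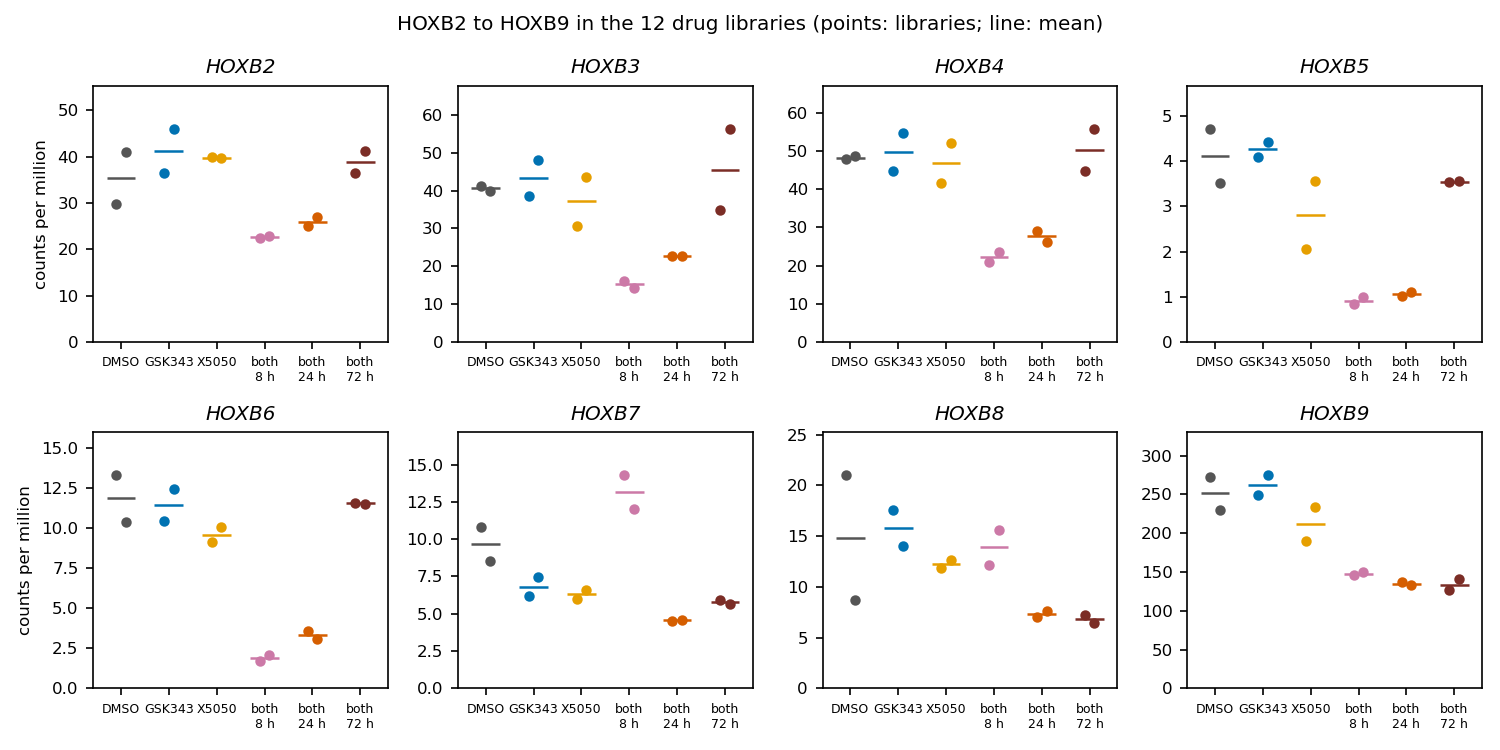
CPM of HOXB2 to HOXB9 (vertical axis, from 0) in the 12 drug libraries by group, with points for libraries and a line for the group mean. HOXB6 falls from 13.3 and 10.4 CPM with DMSO to 1.70 and 2.10 after 8 h of both drugs and reads 11.6 and 11.5 at 72 h, while HOXB9 reads 127 and 141 at 72 h against 273 and 230 with DMSO.

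The posterior HOXB genes had another course. HOXB9 had 273 and 230 CPM with DMSO, 146 and 150 at 8 h, 137 and 133 at 24 h, and 127 and 141 at 72 h. All 6 libraries with both drugs were below both DMSO libraries at every time. HOXB9 fell by 0.80 ± 0.12, 0.72 ± 0.12 and 0.88 ± 0.12 at 8, 24 and 72 h, with edgeR adjusted p of 6.10e-05, 0.000156 and 3.17e-05, and each call held with any 1 library left out. From 24 h to 72 h its log2 change was -0.16.

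HOXB8 read 21.0 and 8.69 CPM with DMSO, 12.1 and 15.6 at 8 h, 7.06 and 7.66 at 24 h, and 7.20 and 6.40 at 72 h. The 2 DMSO libraries stood far apart for this gene, and the 8 h libraries lay between them. HOXB8 fell by 1.08 ± 0.28 at 72 h (edgeR adjusted p = 0.00699). Without DMSO replicate 1 the 72 h difference was -0.42 (adjusted p = 0.139), and without the 72 h replicate 2 the adjusted p was 0.0578. Its fall at 24 h, by 0.81 ± 0.27 (adjusted p = 0.0257), had an adjusted p of 0.633 without DMSO replicate 1, 0.125 and 0.0895 without the 24 h replicates 1 and 2, 0.171 with the GC trend removed and 0.0893 with only the 2 groups fitted.

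HOXB7 stood apart at 8 h. It read 10.8 and 8.54 CPM with DMSO, 14.3 and 12 at 8 h, 4.52 and 4.59 at 24 h, and 5.89 and 5.66 at 72 h. Both 8 h libraries were above both DMSO libraries and both later groups below them. The 8 h difference of 0.41 ± 0.18 did not pass (edgeR adjusted p = 0.083), while HOXB7 fell by 0.90 ± 0.19 at 24 h (adjusted p = 0.00126) and by 0.71 ± 0.19 at 72 h (adjusted p = 0.00832, or 0.0503 without the 72 h replicate 2).

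Counted over the clusters, 8 of the 17 tested HOX genes passed at 8 h, all lower, where 43.0% of all tested genes passed in either direction. At 24 h 11 of 17 passed, all lower, beside 43.1% of all tested genes, and at 72 h 4 of 17, 3 lower and 1 higher, beside 36.4%. From 24 h to 72 h 6 passed, all higher, beside 45.9%. These comparisons share libraries, the first 3 those of DMSO. The median log2 fold change of the 17 was -0.80 at 8 h, -0.90 at 24 h and -0.18 at 72 h against DMSO and 0.82 from 24 h to 72 h, where the medians over all tested genes lay between -0.02 and 0.07. The 24 h count fell to 7 without DMSO replicate 1, to 7 without DMSO replicate 2, to 6 and 5 without the 24 h replicates 1 and 2 and to 6 with the GC trend removed. HOXB5, HOXB6, HOXB7 and HOXB9 were called at 24 h whichever library was left out. The 72 h count fell to 2 without the 72 h replicate 2.

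**Figure D3:**
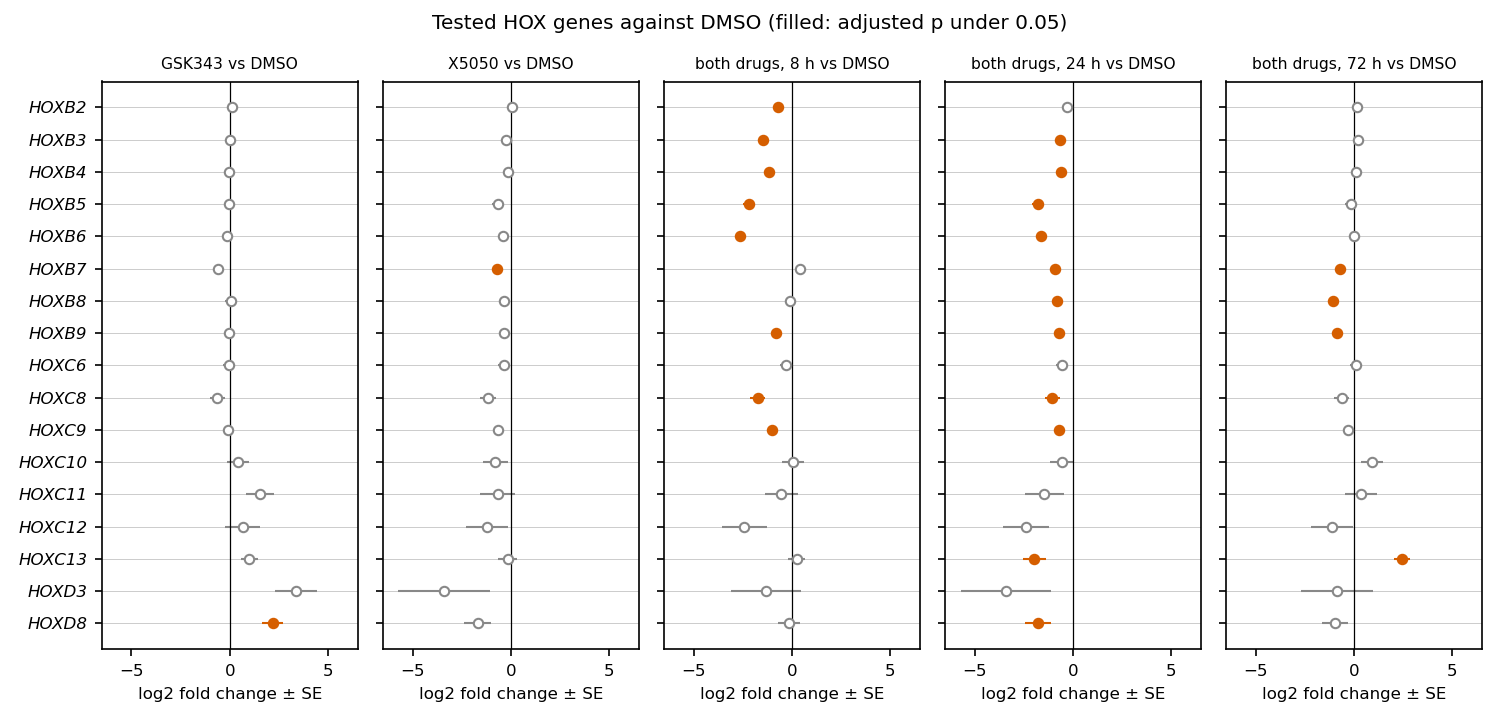
Log2 fold change against DMSO with its SE (horizontal axis) for the 17 tested HOX genes (rows, cluster and paralog order) in 5 comparisons that share the DMSO libraries, with filled points where the edgeR adjusted p is under 0.05. HOXB2 to HOXB6 lie left of 0 at 8 h and near 0 at 72 h, and HOXC13 is at 2.43 at 72 h.

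In the HOXC cluster, HOXC9 led by level and HOXC13 by change. HOXC9 read 9.19 and 8.01 CPM with DMSO, 7.77 and 9.25 under GSK343, 6.40 and 5.44 under X5050, and 3.40 and 5.37 after 8 h, 4.97 and 4.38 after 24 h and 6.37 and 7.14 after 72 h of both drugs. Every library with X5050, alone or with GSK343, was below both DMSO libraries. HOXC9 fell by 1.00 ± 0.23 at 8 h (edgeR adjusted p = 0.00242, or 0.0639 without the 8 h replicate 1) and by 0.70 ± 0.23 at 24 h (adjusted p = 0.0223). The 24 h call was lost without DMSO replicate 1 (0.057), without the 24 h replicates 1 and 2 (0.0605 and 0.158) and with the GC trend removed (0.138).

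HOXC8 read 3.25 and 2.61 CPM with DMSO, 2.05 and 1.89 under GSK343, 0.827 and 1.99 under X5050, and 0.746 and 1.02 after 8 h, 1.12 and 1.37 after 24 h and 1.22 and 2.43 after 72 h of both drugs. All treated libraries were below both DMSO libraries. It fell by 1.75 ± 0.40 at 8 h (edgeR adjusted p = 0.00239) and by 1.05 ± 0.39 at 24 h (adjusted p = 0.0394). The 24 h call was lost with any 1 library left out (0.0562 to 0.192), in DESeq2 (0.0602) and with the GC trend removed (0.0634). With X5050 alone the difference of -1.17 ± 0.40 did not pass (adjusted p = 0.0654).

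HOXC13, the most posterior HOXC gene and a regulator of hair keratins, had 10 and 19 counts with DMSO, 30 and 41 under GSK343, 18 and 12 under X5050, and 31 and 19 after 8 h, 5 and 4 after 24 h and 61 and 97 after 72 h of both drugs. On the CPM scale that is 0.433 and 0.718 with DMSO, 0.140 and 0.119 at 24 h, and 2.66 and 3.57 at 72 h. The 24 h libraries were the lowest of the 12 and the 72 h libraries the highest. HOXC13 fell by 1.97 ± 0.57 at 24 h (edgeR adjusted p = 0.0104, or 0.106 without DMSO replicate 2 and 0.0678 without the 24 h replicate 2). At 72 h it rose by 2.43 ± 0.42 over DMSO (adjusted p = 0.000267), and by 4.40 ± 0.49 over the 24 h group (adjusted p = 3.88e-06), and both calls held with any 1 library left out.

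HOXC10 had 12 and 6 counts with DMSO, 10 and 20 under GSK343, 6 and 6 under X5050, and 14 and 14 after 8 h, 7 and 8 after 24 h and 13 and 21 after 72 h of both drugs. In CPM the 72 h libraries (0.567 and 0.772) lay above those of DMSO, X5050, 8 h and 24 h and overlapped those of GSK343. The difference from DMSO did not pass (edgeR adjusted p = 0.217). Those from 24 h and from X5050 were 1.47 ± 0.56 and 1.68 ± 0.58, with edgeR adjusted p of 0.0404 and 0.0363. Both calls were lost with any 1 library left out (0.0625 to 0.22), in DESeq2 (0.158 and 0.141), without the filter on low counts (0.105 and 0.0863) and with unstranded counts (0.0755 and 0.0639). HOXC6, HOXC11 and HOXC12 were tested and passed in no drug comparison. HOXC12 had 0 to 33 counts in a library and HOXC11 1 to 13.

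GSK343 alone was followed by more HOXD reads. The summed counts of the cluster were 19 and 21 with DMSO, 74 and 176 under GSK343, 5 and 10 under X5050, and 32 and 17 after 8 h, 3 and 11 after 24 h and 13 and 11 after 72 h of both drugs. Both GSK343 libraries were above all others. HOXD8 made up most of this sum, with 17 and 17 counts with DMSO, 52 and 143 under GSK343, 4 and 8 under X5050, and 29 and 16, 3 and 9, and 11 and 6 after 8, 24 and 72 h of both drugs. It rose by 2.18 ± 0.52 with GSK343 (edgeR adjusted p = 0.0122) and was the 1 member of 17 to pass, beside 12.4% of all tested genes. The GSK343 replicates read 1.97 and 4.59 CPM, against 0.737 and 0.642 with DMSO, and the call was lost without GSK343 replicate 2 (1.37, adjusted p = 0.232) or without DMSO replicate 2 (2.15, adjusted p = 0.0778). Without DMSO replicate 1, 2 members were called. After 24 h of both drugs HOXD8 fell by 1.79 ± 0.68 (adjusted p = 0.042). That call was lost without DMSO replicate 1 (0.106) or 2 (0.0875), without the 24 h replicate 1 (0.269), in DESeq2 (0.0514) and with the GC trend removed (0.119).

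HOXD3 had 2 and 0 counts with DMSO, 10 and 18 with GSK343, and 0 or 1 in each of the other 8 libraries. Both GSK343 libraries were above all others. The ratio of GSK343 to DMSO was 12.1, with a 95% counting interval of 3.04 to 104, and its edgeR adjusted p of 0.0595 missed the threshold. HOXD3 also had 28 counts on the opposite strand beside its 32, where HAGLR and HOXD-AS2 are annotated, against 6.1% to 18.5% for the other 16 tested members. HOXD13, the most posterior HOXD gene and a limb digit gene, had 0 and 3 counts with DMSO, 7 and 8 with GSK343 and 0 to 2 elsewhere, a ratio of 4.31 with a counting interval of 1.22 to 23.2. It was too low to be tested in this arm.

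The 250 bases ahead of the RefSeq start (GRCh38.p14) of HOXD8, HOXD13 and HOXD4, the 3 HOXD genes that rose in a comparison with a control, are shown to let the CpG content of these starts be read directly. Capitals mark each CG dinucleotide and each sequence runs 5′ to 3′ on the plus strand.
HOXD8, chr2:176129455-176129704: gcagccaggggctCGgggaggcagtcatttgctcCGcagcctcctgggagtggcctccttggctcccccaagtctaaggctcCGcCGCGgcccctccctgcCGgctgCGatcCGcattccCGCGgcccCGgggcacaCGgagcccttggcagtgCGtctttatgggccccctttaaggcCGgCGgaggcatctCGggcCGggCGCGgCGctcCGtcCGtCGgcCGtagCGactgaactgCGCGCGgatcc
HOXD13, chr2:176092471-176092720: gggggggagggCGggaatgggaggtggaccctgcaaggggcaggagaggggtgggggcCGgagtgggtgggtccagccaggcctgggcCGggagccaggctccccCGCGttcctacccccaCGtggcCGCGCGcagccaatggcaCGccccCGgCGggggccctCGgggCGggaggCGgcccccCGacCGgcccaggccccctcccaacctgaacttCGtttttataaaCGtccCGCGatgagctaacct
HOXD4, chr2:176151300-176151549: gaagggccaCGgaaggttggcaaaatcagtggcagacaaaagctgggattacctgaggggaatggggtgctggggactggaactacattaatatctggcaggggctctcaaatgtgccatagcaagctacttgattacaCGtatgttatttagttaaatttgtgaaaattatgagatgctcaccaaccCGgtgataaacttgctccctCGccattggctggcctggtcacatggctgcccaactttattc
The HOXD8 window holds 28 CG dinucleotides, more than 84.1% of the 35116 windows of that length in the table, HOXD13 holds 21 (more than 69.8%) and HOXD4 holds 4 (more than 29.3%). The median over all windows is 11. TATAAA was searched on both strands, and these letters occur in 10.7% of all windows. HOXD13 has 2 overlapping matches, 1 on each strand, and the other 2 windows have none. The table holds 27 windows of 20 HOX genes, with a median of 19 CG dinucleotides and a range of 0 to 40.

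GSK343 libraries also held a few counts of HOXA genes, which were at or near 0 with DMSO. The 11 HOXA genes together had 1 and 1 counts with DMSO, 5 and 17 under GSK343, 1 and 1 under X5050, and 1 and 3, 0 and 0, and 5 and 9 after 8, 24 and 72 h of both drugs. HOXA3 gave 10 of the 22 GSK343 counts, and 7 of the 11 HOXA genes had at least 1 count with GSK343 against 1 with DMSO. The matching share over all genes is not given here. Of the 33 HOX genes with a count in the GSK343 and DMSO libraries, 11 (33.3%) had both GSK343 libraries above both DMSO libraries. They were HOXA3, HOXA6, HOXA9, HOXC11, HOXC13, HOXD3, HOXD4, HOXD8, HOXD9, HOXD10 and HOXD13. This share is near the 26.5% of all genes with a count, and HOXA6 and HOXA9 had only 1 count in each GSK343 library. None of these 11 was of the HOXB cluster, the most abundant one, whose tested members had log2 differences of -0.58 to 0.13 with GSK343. The median over the 17 tested members was 0.01.

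The noncoding RNAs of the clusters were counted from a list of 24. With GSK343, HAGLR, a long RNA antisense to HOXD1 and HOXD3, had 14 and 12 counts against 1 and 0 with DMSO (edgeR adjusted p = 0.0331) and was the 1 of 7 tested that passed, a share near the 12.4% of all tested genes. HOTAIR, antisense to HOXC11, had 3 and 4 counts against 0 and 0, below the filter and named here after its values were seen. In the 72 h combination HAGLR had 0 and 0 and HOTAIR 1 and 0. HOXB-AS1, which lies opposite HOXB2 and HOXB3, fell by 1.23 ± 0.24 at 8 h (edgeR adjusted p = 0.000641) and by 0.91 ± 0.24 at 24 h (adjusted p = 0.00577), and rose by 0.74 ± 0.24 from 24 h to 72 h (adjusted p = 0.0191). Its counts were 186 and 210 with DMSO, 95 and 158 at 8 h, 125 and 137 at 24 h and 140 and 213 at 72 h. HOXB-AS3, opposite HOXB3 to HOXB6, fell by 1.59 ± 0.49 at 8 h (adjusted p = 0.0156), with 22 and 12 counts against 30 and 40 with DMSO. MIR196A1, a microRNA gene within the HOXB7 span, fell by 1.93 ± 0.71 at 24 h (adjusted p = 0.0376), with 4 and 4 counts against 20 and 5.

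**Figure D4:**
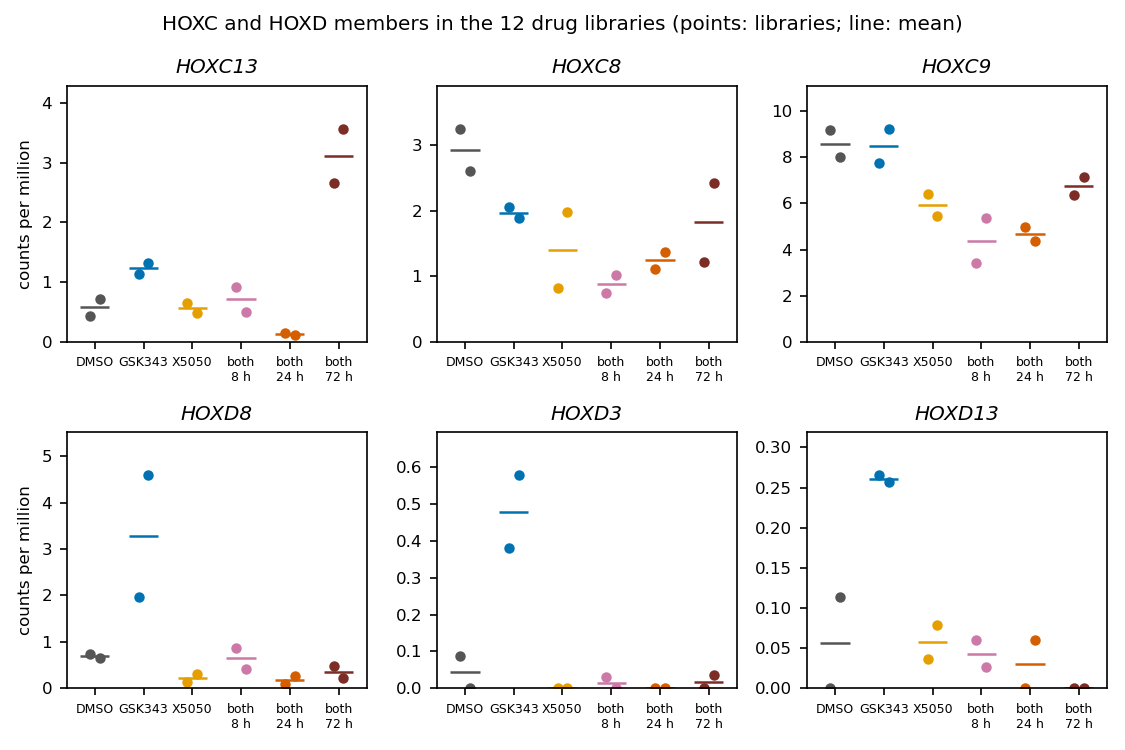
CPM (vertical axis, from 0) of 3 HOXC and 3 HOXD genes in the 12 drug libraries by group, with points for libraries and a line for the group mean. HOXC13 is highest after 72 h of both drugs (2.66 and 3.57 CPM), and HOXD8 is highest with GSK343 alone (1.97 and 4.59 CPM).

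With 72 h of a single drug no HOXB gene other than HOXB7 passed the test. HOXB6 read 10.4 and 12.4 CPM with GSK343 and 9.10 and 10.1 with X5050. HOXB5 read 4.10 and 4.43 with GSK343 and 2.05 and 3.57 with X5050. For both genes the GSK343 libraries overlapped DMSO, as did 1 X5050 library of HOXB5, and both X5050 libraries of HOXB6 lay below DMSO. HOXB2, HOXB3 and HOXB4 read 36.6 to 54.9 CPM with GSK343 and 30.6 to 52.2 with X5050. HOXB8 read 17.6 and 14.0 with GSK343 and 11.8 and 12.7 with X5050, all between its 2 DMSO libraries. HOXB9 read 249 and 275 with GSK343 and 191 and 234 with X5050.

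X5050 alone moved 1 member of 17, beside 12.6% of all tested genes. HOXB7 fell by 0.72 ± 0.19 (edgeR adjusted p = 0.0216), with 6.01 and 6.59 CPM against 10.8 and 8.54. The call was lost without DMSO replicate 1 (0.0602), without X5050 replicate 1 (0.165) or 2 (0.0687) and with only the 2 groups fitted (0.192). Without DMSO replicate 2, 2 members were called. With GSK343 alone HOXB7 had 6.18 and 7.45 CPM, a difference of -0.58 ± 0.19 that did not pass (adjusted p = 0.0571). The median log2 difference of the 17 members with X5050 was -0.64, against -0.03 over all tested genes. Of the 17, 7 had an unadjusted edgeR p under 0.05, all lower, and the share of all tested genes under it is not given here.

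Set against each single drug at 72 h, the combination had lower HOXB9 and higher HOXC13, and against GSK343 lower HOXD8. Against GSK343, 5 members passed beside 39.4% of all tested genes. HOXD8 fell by 3.15 ± 0.57 (edgeR adjusted p = 0.000422) and HOXB9 by 0.86 ± 0.12 (adjusted p = 3.95e-05), and both calls held with any 1 library left out. HOXB8 fell by 1.11 ± 0.27 (adjusted p = 0.00528) and HOXC13 rose by 1.45 ± 0.38 (adjusted p = 0.00626). HOXD3, with 1 count in the 2 combination libraries against 28 in the 2 GSK343 libraries, passed with an adjusted p of 0.0138, and the ratio was 0.041 with a counting interval of 0.001 to 0.248. Without the 72 h replicate 2 the count fell to 2, with adjusted p of 0.0514 for HOXB8, 0.0697 for HOXC13 and 0.0571 for HOXD3. HOXC13 had 0.0552 without GSK343 replicate 1, and HOXD3 had 0.118 without the 72 h replicate 1. HOXD3 had no adjusted p in DESeq2, with unstranded counts or without GSK343 replicate 2.

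Against X5050, 3 members passed beside 30.3%. HOXB9 fell by 0.53 ± 0.12 (edgeR adjusted p = 0.00301, or 0.0544 without the 72 h replicate 1), and HOXC13 rose by 2.59 ± 0.41 (adjusted p = 0.000221) whichever library was left out. HOXC10, the third, was lost in DESeq2. HOXB8, with a difference of -0.72 ± 0.28, missed the threshold (edgeR adjusted p = 0.0632) but was called in DESeq2 (0.0208), with RLE size factors (0.0442), without the filter on low counts (0.000842), with unstranded counts (0.0407), with the GC trend removed (0.0219) and with only the 2 groups fitted (0.00981). In the test of whether X5050 acted differently with and without GSK343 at 72 h, 1 member passed beside 18.8% of all tested genes. HOXB9 differed by -0.35 between X5050 and DMSO and by -0.86 between the combination and GSK343, a difference of -0.51 ± 0.17 (edgeR adjusted p = 0.0429). This call was lost without DMSO replicate 2 (0.0653), 72 h replicates 1 (0.178) and 2 (0.0518), GSK343 replicate 2 (0.143) or X5050 replicate 2 (0.113), and with only these groups fitted (0.11). Without DMSO replicate 1, 3 members were called. For HOXC13 the same difference was 1.61, and for HOXD8 -1.47, and neither passed.

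In the excision arm the members that rose were HOXD genes at the low end of the scale. HOXD13 had 5 and 5 estimated counts in EV, 64 and 34 for S1KO, 20 and 13 for S2KO, and 18 and 29 for DKO. All 6 excised libraries were above both EV libraries, as counts and in CPM. It rose by 3.02 ± 0.53 in S1KO (edgeR adjusted p = 0.0304) and by 2.63 ± 0.53 in DKO (adjusted p = 0.0294), and its difference of 1.77 ± 0.54 in S2KO did not pass (adjusted p = 0.222). HOXD4 had 0 and 1 estimated counts in EV, 1.0 and 2.5 for S1KO, 3.4 and 7.3 for S2KO, and 10.0 and 12.5 for DKO. Its DKO libraries were the highest of the 8, and its annotated span overlaps that of HOXD3 on the same strand. The ratio of DKO to EV was 33.7 with a counting interval of 5.46 to 1390, and the adjusted p was 0.0445.

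These 3 calls rested on few libraries and few counts. HOXD13 had an adjusted p of 0.0645 to 0.167 in S1KO and of 0.0953 to 0.186 in DKO with any 1 library left out, and HOXD4 of 0.122 to 0.255 in DKO. HOXD13 in S1KO was also lost with only the 2 groups fitted (0.0918), and HOXD4 in DESeq2 (0.0578), with length-scaled counts (0.0531) and with only the 2 groups fitted (0.0518). Beside 3.67% of all tested genes in S1KO and 8.77% in DKO, 1 and 2 of the 22 tested members passed. In S2KO no member passed in edgeR or in DESeq2, beside 2.01% of all tested genes. There 5 had an unadjusted edgeR p under 0.05, and the share of all tested genes under it is not given here.

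**Figure D5:**
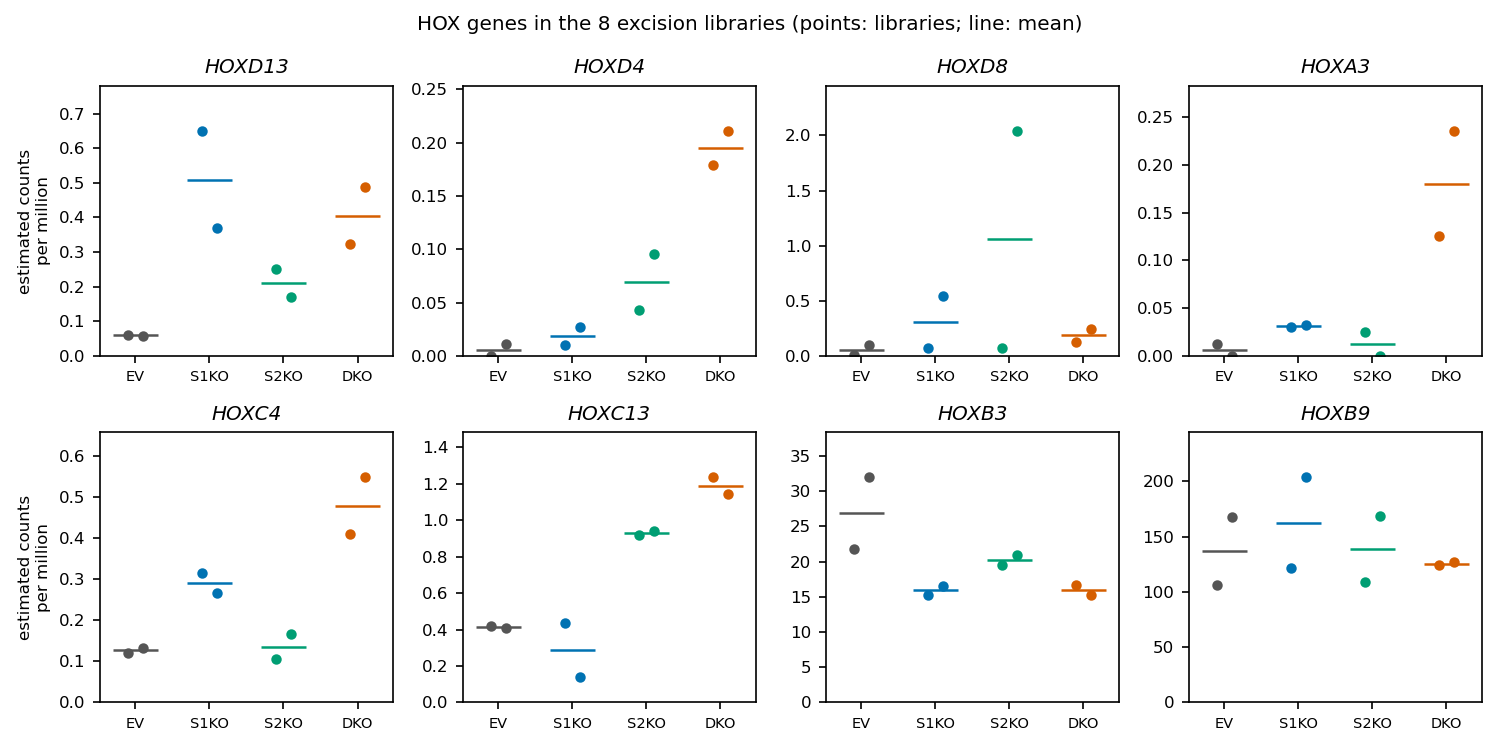
CPM from estimated counts (vertical axis, from 0) of 8 HOX genes in the 8 excision libraries by group, with points for libraries and a line for the group mean. HOXD13 is above both EV libraries in all 6 excised libraries, HOXD4 is highest in the 2 DKO libraries, and HOXB9 overlaps between all groups.

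Other low members stood higher in DKO without passing the main edgeR test. HOXA3 had 1 and 0 in EV and 7 and 14 in DKO (edgeR adjusted p = 0.0725, or 0.0396 with length-scaled counts). HOXC4 had 9.8 and 11.6 in EV and 22.9 and 32.5 in DKO (1.77 ± 0.43, edgeR adjusted p = 0.0539). HOXC4 was called with length-scaled counts (0.0423) and with a replicate block (0.0452). Of the 36 HOX genes with a count in the EV and DKO libraries, 19 (52.8%) had both DKO libraries above both EV in CPM. The share over all genes with a count was 30.8%. These 19 included HOXB2, HOXB6 and HOXB7, whose means exceeded 1 TPM, and HOXD4 and HOXD13, which passed the test. HOXA-AS2, which lies opposite HOXA3 and HOXA4, was the 1 of 7 tested noncoding RNAs that passed in DKO (edgeR adjusted p = 0.0457), beside 8.77% of all tested genes. It had 4 and 0 estimated counts in EV, 18 and 14 for S1KO, 4 and 7 for S2KO, and 28 and 25 for DKO.

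No HOXB gene passed the main edgeR test in an excised line. HOXB3 had the lowest adjusted p of them in DKO, with 21.8 and 32.0 CPM in EV, 15.3 and 16.6 for S1KO, 19.6 and 21.0 for S2KO, and 16.8 and 15.2 for DKO. Every excised library was below both EV libraries. The DKO difference of -0.87 ± 0.22 had an edgeR adjusted p of 0.0595, against 0.0116 in DESeq2 and 0.0357 in edgeR with a replicate block. In S1KO the difference was -0.82 ± 0.22, with an edgeR adjusted p of 0.116, against 0.0355 in DESeq2 and 0.0485 without EV replicate 1. The median log2 difference over the 22 tested members was 0.29 in S1KO, 0.05 in S2KO and 0.42 in DKO, against 0.01 to 0.02 over all tested genes. Summed erythroid markers were at 2582 and 6093 CPM in EV and 17650 and 20580 in DKO, and their part in the differences was not tested.

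Among the cofactors of HOX proteins in the excised lines, MEIS1 fell by 1.80 ± 0.25 in S2KO (edgeR adjusted p = 0.0191) and PBX3 rose by 2.02 ± 0.42 in DKO (adjusted p = 0.0321).

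In the drug arm 10 cofactors were tested. With GSK343 none fell, and MEIS3 rose by 1.74 ± 0.28 and PBX3 by 2.03 ± 0.35, with edgeR adjusted p of 0.00073 and 0.00146. With X5050 2 rose (TGIF1 and PBX2) and 1 fell (PKNOX1). Over all tested genes 12.4% were called with GSK343 and 12.6% with X5050. With both drugs 4 rose and 1 fell at 8 h, 3 rose and 2 fell at 24 h, and 7 rose and 0 fell at 72 h, beside 43.0%, 43.1% and 36.4% of all tested genes called in either direction. The shares called at 8 h and 24 h are near that background. MEIS3 was high with GSK343 and low at the early times of the combination, with 6.93 and 2.91 CPM with DMSO, 16.2 and 17.9 with GSK343, 1.37 and 1.23 after 8 h of both drugs, 1.62 and 1.79 after 24 h, and 9.95 and 7.43 after 72 h. It fell by 1.93 ± 0.31 at 8 h (adjusted p = 0.000138) and by 1.32 ± 0.30 at 24 h (adjusted p = 0.00228), and rose by 2.19 ± 0.30 from 24 h to 72 h (adjusted p = 2.42e-05).

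Of the genes that keep HOX genes active, 12 of 16 were tested in the drug arm, and CDX1 and CDX4, homeobox activators of HOX genes, were at 0 in every library of both arms. With GSK343 0 rose and 2 fell, KMT2A by 0.68 ± 0.15 (edgeR adjusted p = 0.0086) and NUP98 by 0.42 ± 0.12 (adjusted p = 0.0338). With X5050 1 rose (MEN1) and 1 fell (KDM6B). The shares of all tested genes called were 12.4% and 12.6% with these drugs. With both drugs 4 rose and 1 fell at 8 h, 6 and 1 at 24 h, and 5 and 0 at 72 h, where 43.0%, 43.1% and 36.4% of all tested genes were called. The shares at 8 h and 72 h are near that background. KDM6A, a demethylase of H3K27, rose by 0.78 ± 0.12 (adjusted p = 0.000118) and AFF4, of the super elongation complex, by 0.87 ± 0.16 (adjusted p = 0.000449) at 72 h. Among the excised lines 0 rose and 1 fell in S1KO (AFF1), none moved in S2KO, and 0 rose and 2 fell in DKO (AFF1 and KAT6A). Of all tested genes 3.67%, 2.01% and 8.77% were called in these lines.

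The Polycomb genes were tested as 11 members of PRC2 and 12 of PRC1. In PRC2 0 rose and 1 fell with GSK343, 1 and 2 with X5050, 5 and 3 after 8 h of both drugs, 9 and 1 after 24 h, and 3 and 4 after 72 h. EZH2 rose by 0.79 ± 0.13 at 24 h (edgeR adjusted p = 0.000198) and fell by 1.17 ± 0.14 from 24 h to 72 h (adjusted p = 5.35e-06), and EZH1, its paralog, fell by 1.01 ± 0.16 with GSK343 (adjusted p = 0.000669) and by 1.51 ± 0.16 at 8 h (adjusted p = 3.35e-06). In PRC1 1 rose and 1 fell with GSK343, 1 and 1 with X5050, 2 and 2 at 8 h, 2 and 6 at 24 h, and 4 and 1 at 72 h. Over all tested genes 12.4% were called with GSK343, 12.6% with X5050, and 43.0%, 43.1% and 36.4% at 8, 24 and 72 h, and PRC1 at 8 h was below that share. Without drugs, no PRC2 or PRC1 member passed in S1KO or S2KO, beside 3.67% and 2.01% of all tested genes. RBBP4, PHC1 and PHC2 fell in DKO, beside 8.77% called in either direction.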

How the data were processed

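RNA was sequenced from 20 K562 libraries with a stranded total RNA kit after ribosomal RNA removal, per the labels' protocols. Trimmomatic 0.38, STAR 2.7.3a and kallisto 0.44.0 and the build hg19 are named in the submitters' processing notes; the annotation release is not given in the sources used here. For the drug arm the authors deposited whole-number counts per gene for 2 strands, and the strand with 8.01 to 9.77 times more counts was used, with CPM computed from it. For the excision arm the authors deposited estimated counts, TPM and effective lengths per transcript; these were summed to genes through GENCODE 29 (182238 of 215170 transcripts matched, holding 87.8% to 90.4% of the estimated counts), and the summed counts were rounded for testing.

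Groups came from the sample labels. Each arm was fitted once over all its libraries with edgeR 4.0.16 (R 4.3.3, filterByExpr, TMM, robust quasi-likelihood test), leaving 19224 drug-arm and 21285 excision-arm genes after filtering. A gene was called at a Benjamini-Hochberg adjusted p under 0.05 over all tested genes. The fit was tested on simulated data, where it found 53 of 100 genes with a 2-fold change and 70 of 100 with a 4-fold change for 72 h of both drugs against DMSO among 19224 genes. For DKO against EV among 21285 genes it called 6 and 34 of 100. Beside these it called 10 unchanged genes in the drug simulation and 4 in the DKO simulation. Ratios of counts carry exact 95% intervals, which cover counting error only, as does the floor of 3 counts over a group. Alternatives were DESeq2 1.42.0, no filter on low counts, unstranded or length-scaled counts, only the groups compared, a replicate block, each library left out and, chosen after seeing the data, a GC trend removed. Named genes were all members, those called or leading their cluster with values in every library, and up to 4 called genes per list and comparison by lowest p. The members and lists were chosen with earlier results of these data known. Promoter sequences are from RefSeq, GRCh38.p14. Results for some genes are not reported here.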

Additional observations from a re-analysis of the deposited data

Results flagged for a closer look

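The effect of X5050 on HOXB9 at 72 h passed the test of a difference between cells without and with GSK343. The difference was -0.51 ± 0.17 on the log2 scale (edgeR adjusted p = 0.0429), with -0.35 for X5050 against DMSO and -0.86 for the combination against GSK343. Both combination libraries (127 and 141 CPM) lay below both X5050 libraries (191 and 234 CPM). The call was lost when any of 5 of the 8 libraries was left out (adjusted p of 0.0518 to 0.178) and with only these groups fitted (0.11). Without the filter on low counts HOXB8 was also called (0.042).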

How the results depend on the processing

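Of 43 single-gene calls, 19 held with any 1 library left out. Under the other alternatives 276 of 299 values kept their direction and call, 23 were no longer called and 0 reversed, and with a library left out 113 of 175 kept their call, 62 did not and 0 reversed. With 1 library left out, the number of HOX genes called ranged from 0 to 2 for GSK343, 0 to 2 for X5050, 2 to 5, 5 to 7 and 7 to 9 for 72, 24 and 8 h of both drugs, 2 to 4 for the combination against GSK343, 0 to 3 for the difference between X5050 effects, 0 to 1 for S1KO and 0 to 2 for DKO. A lone library was then assumed to vary like the other groups. With only the groups compared fitted, the count was 0 for X5050, 0 for the difference between X5050 effects, 0 for S1KO and 1 for DKO. Without the filter on low counts it was 2 for X5050 and 2 for the difference between X5050 effects, with the GC trend removed 2 for X5050 and 6 for 24 h, and with DESeq2 2 for S1KO. The HOXB share of HOX signal was 91.7% ± 1.64 (SD, n = 8) in TPM and 94.95% ± 1.02 in CPM from estimated counts. The cause of these shifts was not tested. The replicate numbers give only 2 pairs and the labels tie them to no shared batch. With the replicate block the count was 2 for X5050 and 4 for DKO. Replicate differences correlated between groups by -0.055 to 0.233 in the drug arm and -0.084 to 0.622 in the excision arm. Untested members had at most 12 counts in a library and fell below the filter, so changes in them were not tested.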

Other observations

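Homeobox genes outside the HOX clusters were counted from a list of 25. With GSK343, 5 of 12 tested rose and 0 fell, with a median log2 difference of 1.17 against 0.00069 over all tested genes. DLX4 rose by 2.17 ± 0.37 (edgeR adjusted p = 0.00119), EN1, a brain patterning gene, by 1.57 ± 0.29 (adjusted p = 0.00258) and DLX2 by 1.38 ± 0.29 (adjusted p = 0.00731). With both drugs 0 rose and 3 fell at 8 h, 0 and 4 at 24 h, and 3 and 3 at 72 h, and with X5050 0 rose and 1 fell. Over all tested genes 12.4% were called with GSK343, 12.6% with X5050, and 43.0%, 43.1% and 36.4% at 8, 24 and 72 h of both drugs, and the counts at 8 h and 24 h are below that share. In the excision arm 0 of 10 tested fell, while 3 rose in S1KO, 2 in S2KO and 4 in DKO. Over all tested genes 3.67%, 2.01% and 8.77% were called in these lines, in either direction. MSX1 rose in all 3 lines, by 2.68 ± 0.26, 2.88 ± 0.26 and 2.86 ± 0.26 (edgeR adjusted p = 0.00334, 0.00458 and 0.00163).

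Of the genes just outside the clusters, the drug arm tested 17 and the excision arm 19. With GSK343 3 rose and 0 fell: JAZF1 by 1.68 ± 0.31, SNX10 by 0.62 ± 0.13 and SKAP2 by 0.47 ± 0.14 (edgeR adjusted p = 0.0024, 0.00545 and 0.0328), all on the HOXA side. With X5050 1 rose and 5 fell, and with both drugs 6 rose and 4 fell at 8 h, 7 and 1 at 24 h, and 4 and 8 at 72 h. Beside the same shares of all tested genes, the count at 24 h is near the background. In the excision arm SNX10 fell by 1.10 ± 0.23 in DKO (adjusted p = 0.0347), and none passed in S1KO or S2KO.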
